A study of Mus musculus with 2 samples.

Results

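Sprouty, Spred and Errfi1 proteins are intracellular brakes on receptor tyrosine kinases. The genes described here are Spry1, Spry2 and Spry4 of the Sprouty family, Spred1, Spred2 and Spred3 of the related Spred family, and Errfi1. They were found by gene symbol in the deposited count table, 7 rows of 55487, and all 7 were among the 16408 rows with a total of 20 or more counts over both libraries that entered the comparison. The data are RNA-seq read counts from MC3T3-E1, an established mouse osteoblastic line of calvarial origin. One group is untreated cells labelled 1 h, and the other is cells labelled 1 h with 10 nM PTH (parathyroid hormone), a peptide that signals in osteoblasts through a receptor coupled to cyclic AMP. Both were grown in medium with 10% fetal bovine serum, a source of growth factors for these kinases, and were plated in 12-well format, at a density of 25000 per cm2, 24 h before treatment. Each group is 1 library, so no difference below has a replicate check, no p-value was computed, and the values compare these libraries, not the conditions.

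The libraries held 66302211 counts untreated and 70036872 with PTH. All 12 osteoblast markers examined were compared, with Sp7 past the rule of size defined below as fewer reads and Bglap2, which has near-identical copies, as more. Of 6 chondrocyte markers Acan, Col10a1 and Matn1 were listed at 0 in both libraries, while Sox9 had a ratio of PTH over untreated of 3.27 (3.14 to 3.40) and Col2a1 of 1.35. The summed level of the 6 was 462.0 CPM (counts scaled by library size) untreated and 716.2 with PTH. Of 6 adipocyte markers Adipoq, Plin1 and Lep were listed at 0, and the sum, mostly Cebpa, was 13.0 and 15.6 CPM. Of 7 macrophage and osteoclast markers Adgre1, Ptprc and Calcr were listed at 0, Csf1r and Cd68 had counts, and the sum, mostly Ctsk, was 87.1 and 96.5 CPM. Of 5 muscle markers Myod1 was listed at 0, and the sum was 2.88 and 0.940 CPM, with Acta1 at 124 and 28 counts, past the rule as fewer. Of 5 endothelial markers Cdh5, Kdr and Emcn were listed at 0, and the sum was 0.134 and 0.188 CPM. The part of these markers in the results below was not tested. In a bulk library, more cells with a transcript and more transcript per cell cannot be told apart.

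Growth factor receptors such as those for FGF and EGF activate Ras, which starts the Raf, MEK and ERK kinase cascade. Sprouty proteins are docking proteins, many of them induced by the same cascade, that limit signalling between the receptor and Raf. Spred proteins share the cysteine-rich C-terminal domain of Sproutys and bring neurofibromin (Nf1), which switches Ras off, to the membrane. Errfi1, also called Mig6, binds the kinase domain of EGF receptors directly and inhibits it. In bone, FGF and EGF receptor signalling steers proliferation and differentiation of osteoblast precursors.

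Of the 7 genes, 2 had more reads in the PTH library by the rule of size used here, which asks that the whole 95% exact interval of the ratio of scaled counts lie beyond 1.5-fold. These were Spry2, 4.01-fold higher, and Spry4, 1.92-fold higher. None of the 7 had fewer reads by the rule. Over all rows compared, 5.39% had more reads by the same rule and 3.54% fewer. The median log2 ratio was 0.17 for the 7 genes and 0.00 for all rows. All 3 Sprouty genes had ratios above 1, all 3 Spred genes had ratios below 1, and Errfi1 lay between the families at 1.13. The interval of Spred1, 0.947 to 1.02, includes 1. Bracketed intervals hold counting error alone. They treat reads as independent, which PCR copies are not.

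The 3 Sprouty genes carry their whole coding sequence in 1 exon of a 2-exon transcript. Spry1 and Spry2 span 4.7 and 4.9 kb, and Spry4 spans 15.2 kb. In the GRCm38 assembly (mm10), Spry1 (ENSMUSG00000037211) lies on the plus strand at chr3:37639947-37644598, Spry2 (ENSMUSG00000022114) on the minus strand at chr14:105891947-105896819 and Spry4 (ENSMUSG00000024427) on the minus strand at chr18:38586247-38601415. Their annotated proteins have 313, 315 and 300 residues. The Spred genes and Errfi1 have coding sequence in several exons. Spred1 (ENSMUSG00000027351) spans chr2:117121374-117182279 on the plus strand, Spred2 (ENSMUSG00000045671) chr11:19924375-20024026 on the plus strand, Spred3 (ENSMUSG00000037239) chr7:29158829-29170411 on the minus strand and Errfi1 (ENSMUSG00000028967) chr4:150853919-150868892 on the plus strand. The principal transcripts of Spred1, Spred2, Spred3 and Errfi1 have 7, 6, 5 and 3 coding exons. No exon of Spry2, Spry4, Spred1, Spred2 or Errfi1 overlaps an exon of another annotated gene. Exons of Gm42922 on the opposite strand overlap 24.4% of the exonic length of Spry1, and exons of Ggn overlap 3.25% of that of Spred3. No source used here says whether strand entered the counting, so the counts of Spry1 are less certain. Gm42922 itself had 11 counts untreated and 3 with PTH.

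Spry2, the family member best known as an inhibitor of FGF receptor signalling and as a binding partner of the ubiquitin ligase Cbl, had 1320 counts untreated and 5451 with PTH. Scaled to library size these are 19.7 and 78.9 CPM. The ratio was 4.01 (3.78 to 4.26), the largest among the 7 genes. It ranked 367th from the highest of the 16408 rows compared. Many rows above it had few counts. Among the 11954 rows with a mean of 100 or more counts it ranked 87th, with 99.3% of rows below it. The spread between cultures is unknown. Spry2 was still past the rule with an assumed coefficient of variation of 0.2, but no longer at 0.36.

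Spry4, which restrains FGF and VEGF receptor signalling upstream of Ras, had 147 and 291 counts, or 2.19 and 4.21 CPM. Its ratio was 1.92 (1.57 to 2.36). The lower end of that interval lay close to the 1.5-fold limit, and Spry4 was no longer past the rule at an assumed coefficient of variation of 0.06. Spry1, an inhibitor of FGF and GDNF receptor signalling in development, had 468 and 728 counts, or 6.97 and 10.5 CPM. Its ratio of 1.51 had an interval of 1.34 to 1.70, which includes the 1.5-fold limit, so it was not past the rule. Spry3, the remaining family gene and not among the 7, was listed at 0 counts untreated and 2 with PTH, too few for a ratio.

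Spred1, the best studied recruiter of neurofibromin, had nearly the same number of reads in both libraries, 5690 untreated and 5757 with PTH. Its levels were 84.8 and 83.3 CPM, a ratio of 0.983 (0.947 to 1.02). Spred2, a broadly expressed relative that also inhibits the Ras pathway, had 3621 and 3311 counts, at 53.9 and 47.9 CPM and a ratio of 0.888 (0.847 to 0.931). Spred3 had 308 and 241 counts, at 4.59 and 3.49 CPM and a ratio of 0.760 (0.639 to 0.902). The intervals of Spred2 and Spred3 lie below 1, but neither lies wholly beyond 1.5-fold. Errfi1 had the most reads of the 7 genes, 21305 untreated and 24738 with PTH. At 317.4 and 357.9 CPM its ratio was 1.13 (1.11 to 1.15), a narrow interval above 1 and inside the limit.

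**Figure D1:**
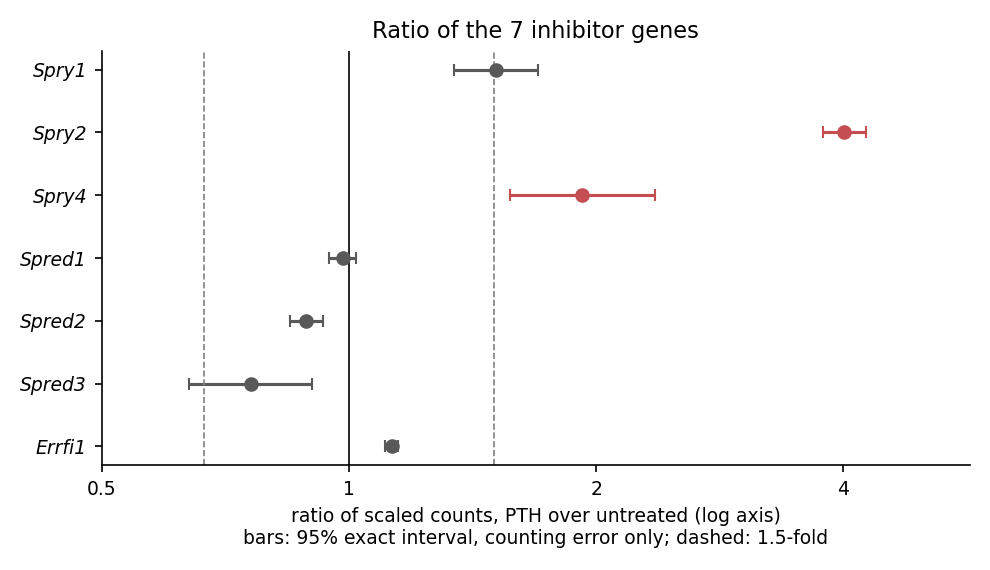
Ratio of scaled counts, PTH over untreated, on a log axis for each of the 7 genes. Points are ratios of 1 library each, bars are 95% exact intervals of counting error, the solid line marks 1 and dashed lines mark 1.5-fold in each direction. Spry2 at 4.01 and Spry4 at 1.92 (red) have intervals wholly above 1.5. The 3 Spred genes have ratios below 1, and the interval of Spred1 includes 1.

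The ratios of 2 genes can be divided by each other, and library scaling then cancels. Of the 21 pairs among the 7 genes, 20 had an exact interval of this quotient that excluded 1, and 10 had one wholly above 1.5. All 6 pairs with Spry2 were among the 10. The ratio of Spry2 was 2.09 times that of Spry4 (1.68 to 2.58), 2.65 times that of Spry1 (2.32 to 3.03) and 5.28 times that of Spred3 (4.40 to 6.34). Spry4 and Spry1 stood nearer each other, with a quotient of 1.27 (1.01 to 1.61). Each Sprouty gene had a higher ratio than each Spred gene, and the smallest of these 9 quotients was Spry1 over Spred1, at 1.54 (1.36 to 1.74). Within the Spred family, Spred1 over Spred2 was 1.11 (1.04 to 1.18), and Spred2 over Spred3 was 1.17 (0.977 to 1.40), the 1 pair whose interval includes 1. These intervals too hold for counting error and say nothing of the spread between cultures.

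**Figure D2:**
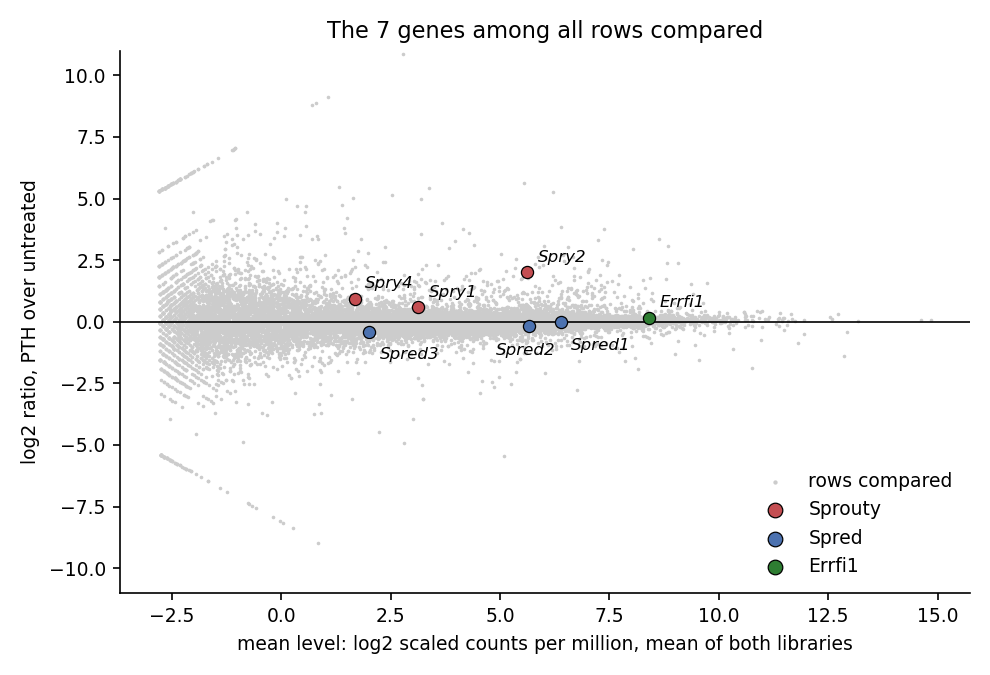
Log2 ratio of PTH over untreated against mean level (log2 CPM over both libraries) for the 16408 rows compared, in grey, with the 7 genes in colour. Spry2 stands above the band of most rows of like level, at a ratio of 4.01, while Spred1, Spred2 and Errfi1 lie inside it.

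Levels of different genes were compared per kilobase of annotated exon. In the untreated library Errfi1 was highest of the 7, at 88.6 CPM per kilobase, followed by Spred1 at 12.5, Spred2 at 11.7 and Spry2 at 9.42. Spry1 stood at 2.40, Spred3 at 0.738 and Spry4 at 0.461. With PTH, Spry2 reached 37.8 per kilobase and stood second, behind Errfi1 at 99.9 and above Spred1 at 12.3 and Spred2 at 10.4. Spry1 was at 3.62, and Spry4, at 0.885, passed Spred3, at 0.561. The order of Spred1 and Spred2 depends on the length used. With the principal transcript in place of all exons, a choice made after the values were seen, Spred2 came before Spred1 in both libraries, at 18.9 against 14.1 per kilobase untreated and 16.8 against 13.8 with PTH.

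**Figure D3:**
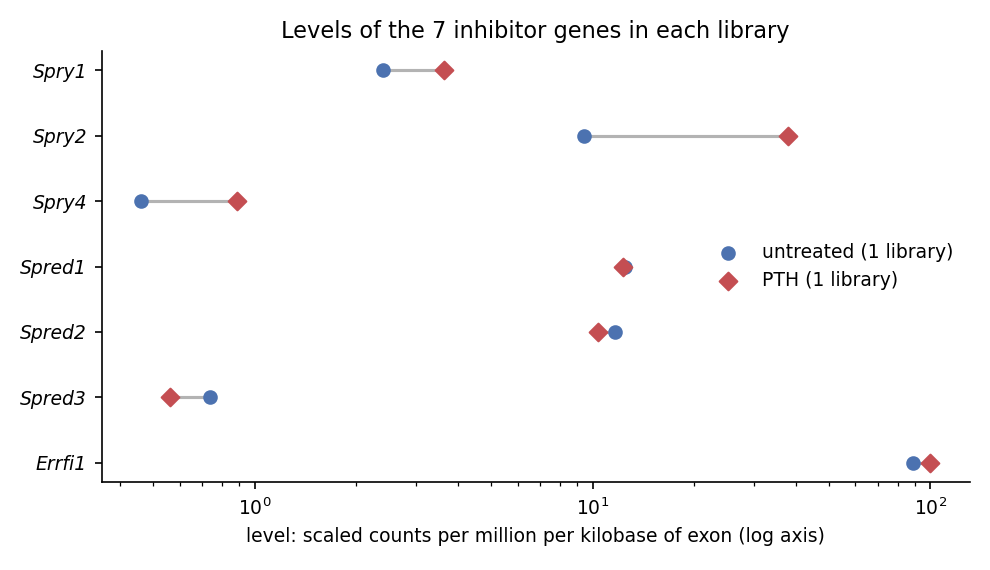
Level of each of the 7 genes in the untreated library (blue circle) and the PTH library (red diamond), in CPM per kilobase of exon, on a log axis. Spry2 goes from 9.42 to 37.8 and passes Spred1 and Spred2, while Errfi1 stays highest in both libraries.

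The makeup of the Sprouty family shifted towards Spry2. Of the counts of Spry1, Spry2 and Spry4 together, Spry2 held 68.2% untreated (exact binomial interval 66.1% to 70.3%) and 84.3% with PTH (83.3% to 85.1%). The share of Spry1 was 24.2% (22.3% to 26.2%) untreated and 11.3% (10.5% to 12.0%) with PTH, although its own level was not lower. Per kilobase, Spry2 made up 76.7% of the summed Sprouty level untreated and 89.3% with PTH. Summed over the 3 genes, Sprouty counts were 1935 untreated and 6470 with PTH, at a ratio of 3.25 (3.09 to 3.42). The Spred family as a whole had 9619 and 9309 counts, at a ratio of 0.940 (0.913 to 0.967). Within it Spred1 held 59.2% of counts untreated and 61.8% with PTH. In summed level per kilobase, the Sprouty genes stood below the Spred genes untreated, at 12.3 against 24.9, and above them with PTH, at 42.3 against 23.2. That order with PTH is set by Spry2, since Spry1 and Spry4 together had under 5 per kilobase.

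Because PTH acts through cyclic AMP, the start regions of the genes were searched for the cyclic AMP response element (CRE), the site bound by CREB-family factors. RefSeq windows of 300 bases (GRCm38.p6, 250 before to 50 after each start) matched 6 of the 7 genes, in 7 windows. Errfi1 has an upstream and a downstream start. Spry4, which was past the rule of size, matched no window and was not searched. The letters searched were the full palindromic element TGACGTCA, its 5-letter core TGACG on either strand (CGTCA on the other), which every full element also holds, and the AP-1 site TGACTCA on either strand. Of all 32851 windows, 1.79% hold the full element, 20.8% the core and 5.20% the AP-1 site. The 250 bases before the start are shown for the gene with the largest ratio, Spry2 (minus strand, chr14:105896820-105897069), and for the downstream start of Errfi1 (plus strand, chr4:150854820-150855069), the 1 window among the 7 with a full element. Capitals mark the letters of the element.

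Spry2: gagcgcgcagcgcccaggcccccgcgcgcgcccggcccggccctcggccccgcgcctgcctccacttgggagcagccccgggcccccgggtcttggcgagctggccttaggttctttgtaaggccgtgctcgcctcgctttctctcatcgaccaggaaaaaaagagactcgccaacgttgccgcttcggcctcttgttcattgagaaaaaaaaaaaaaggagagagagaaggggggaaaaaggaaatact
Errfi1: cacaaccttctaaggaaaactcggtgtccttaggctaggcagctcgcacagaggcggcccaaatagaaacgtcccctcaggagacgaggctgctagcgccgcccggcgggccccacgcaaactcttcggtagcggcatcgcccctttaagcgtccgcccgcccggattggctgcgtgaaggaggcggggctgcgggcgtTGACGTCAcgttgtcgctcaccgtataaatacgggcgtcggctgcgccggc

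The Spry2 window holds neither the full element nor its core. The Errfi1 element lies at chr4:150855019-150855026, with its first base 51 bases before the RefSeq start, in an intron of the longer Errfi1 transcript. The Spred2 window holds the 5-letter core once, and no window of Spry1, Spred1 or Spred3 and not the upstream window of Errfi1 holds it. None of the 7 windows holds the AP-1 site. Errfi1, with the full element, had a ratio of 1.13, and Spred2, with the core alone, of 0.888. The searched genes with neither had ratios of 4.01 (Spry2), 1.51 (Spry1), 0.983 (Spred1) and 0.760 (Spred3). Spry4, at 1.92, was not searched. A link between these letters and the ratios was not tested. Among the 379 compared genes with a full element in a window, 5.01% had more reads by the rule, beside 5.39% of all rows. The share was 4.28% of 3737 genes for the core and 6.68% of 494 for the AP-1 site. All rows include genes that matched no window, such as Spry4. A match is a description of letters in these windows, and elements elsewhere were not searched.

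The genes of most like pattern to each of the 2 genes past the rule were taken as the 3 nearest in log2 CPM over the 2 libraries, among 10723 named genes with 100 or more counts in each. For Spry2 these were Pde4d, a cyclic AMP phosphodiesterase gene, at a distance of 0.087 and a ratio of 3.92, Mab21l1 at 0.166 and 4.55, and Smim3 at 0.166 and 3.47. Pde4d had 1391 and 5620 counts, close to the 1320 and 5451 of Spry2. Exons of other genes on the opposite strand overlap 39.4% of Mab21l1. For Spry4 they were Amd-ps3 at a distance of 0.039, Plac9b at 0.060 and Eid3 at 0.090, with ratios of 1.87, 1.81 and 1.98. Amd-ps3 is a pseudogene and Plac9b has a near-identical copy, so their reads are uncertain.

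The other genes of the pathway were taken from 8 lists. Together they hold 133 genes, of which 121 were compared, 15 had more reads by the rule and 5 fewer, leaving 101 within it, at a median log2 ratio of -0.01. Of all 16408 rows compared, 5.39% had more reads by the rule and 3.54% fewer. The lists were chosen with earlier results of these data known, so these counts are descriptions only. Of 17 receptor tyrosine kinase genes compared, 2 had more reads and none fewer, with a median of 0.01. Fgfr1, an FGF receptor whose signalling Sproutys restrain, had 15417 and 26580 counts and a ratio of 1.67 (1.64 to 1.71). Met, the HGF receptor, had 470 and 976 counts and a ratio of 2.02 (1.80 to 2.26). Neither was past the rule with an assumed coefficient of variation of 0.1. Egfr, the receptor that Errfi1 inhibits, was the lowest of the 17 at 0.874 (0.832 to 0.919), named as the end of the range.

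Of 19 ligand genes, 5 had more reads and 1 fewer, and the median was 0.12. Fgf21, an endocrine FGF, had 6 counts untreated and 171 with PTH, at a ratio of 27.7 (12.5 to 76.5). Areg, an EGF receptor ligand, had 19 and 207 counts, at a ratio of 10.6 (6.61 to 17.9). Vegfa, an angiogenic factor, had 11753 and 62585, at a ratio of 5.17 (5.07 to 5.27). The other 2 with more reads were Fgf2 at 2.06 and Fgf7 at 1.91, and the 1 with fewer was Pdgfb at 0.254, named after their values were seen. Fgf7 was not past the rule with an assumed coefficient of variation of 0.1, nor Fgf2 with 0.2.

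Of 16 adaptor, exchange factor and Ras genes, 1 had more reads and none fewer, with a median of -0.09. It was Gab2, a docking adaptor, with 84 and 172 counts and a ratio of 1.99 (1.52 to 2.61). The lower end of its interval was no longer past 1.5 with total-count or upper-quartile scaling, or with an assumed coefficient of variation of 0.1. The list's members with most counts, the phosphatase gene Ptpn11 and the adaptor gene Crk, stood at 0.935 and 0.919. None of 13 Raf, MEK, ERK and associated genes was past the rule, with a median of 0.00 and a range from 0.850 for Rps6ka2 to 1.26 for Ksr1, both named as the ends of the range.

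Of 11 genes for Ras GTPase-activating and Raf-inhibitory proteins, 2 had more reads and none fewer, with a median of 0.08. Rasa2, a Ras GTPase-activating protein gene, had 2222 and 3707 counts and a ratio of 1.62 (1.54 to 1.71). The lower end of that interval was no longer past 1.5 with total-count scaling, or with an assumed coefficient of variation of 0.1. Dok2, an adaptor gene that recruits such proteins, had 8 and 33 counts, at a ratio of 4.01 (1.81 to 10.0), and was not compared with a minimum total of 100 counts. Nf1, the partner of Spred proteins, was at 1.06 (1.02 to 1.09), a gene named after its value was seen. Of 15 other inhibitors of receptor tyrosine kinases, none had more reads and 1 had fewer, with a median of -0.10. It was Socs5, an inhibitor of EGF receptor and cytokine signalling, with 6715 and 3151 counts and a ratio of 0.456 (0.437 to 0.475). The interval, though not the ratio, included the limit at an assumed coefficient of variation of 0.2. Erbin and Ptpn12, the members with most counts, were at 0.974 and 0.901.

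Among 16 genes for proteins that bind or modify Sprouty and Spred proteins, 1 had more reads and none fewer, with a median of -0.01. Mknk2, a MAP kinase-activated kinase whose family phosphorylates Spry2, had 2684 and 4848 counts and a ratio of 1.75 (1.67 to 1.84), and its interval included 1.5 at an assumed coefficient of variation of 0.1. Nedd4, a ubiquitin ligase that targets Spry2, had 72111 and 71312 counts and a ratio of 0.960, and Ppp2r1a, a scaffold subunit of a phosphatase that acts on Spry2, was at 1.01.

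Transcripts that commonly follow ERK activity went both ways. Of 14 such genes, not counting the Sproutys, 4 had more reads and 3 fewer, and the median was -0.18. Ier3, an immediate-early survival gene, had 5719 and 18170 counts and a ratio of 3.09 (2.99 to 3.18). Fosl1, an AP-1 subunit gene, was at 2.38 (2.28 to 2.49), and exons of other genes on the opposite strand overlap 57.2% of it. Egr1, a zinc finger factor gene, had 20495 and 10178 counts and a ratio of 0.482 (0.471 to 0.494). The other 2 with fewer reads were the ERK phosphatase genes Dusp4 at 0.491 and Dusp6 at 0.512, and the other 2 with more reads were Phlda1 at 2.06 and Epha2 at 1.58, named after their values were seen. With an assumed coefficient of variation of 0.2 only Ier3 of the 14 was past the rule.

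**Figure D4:**
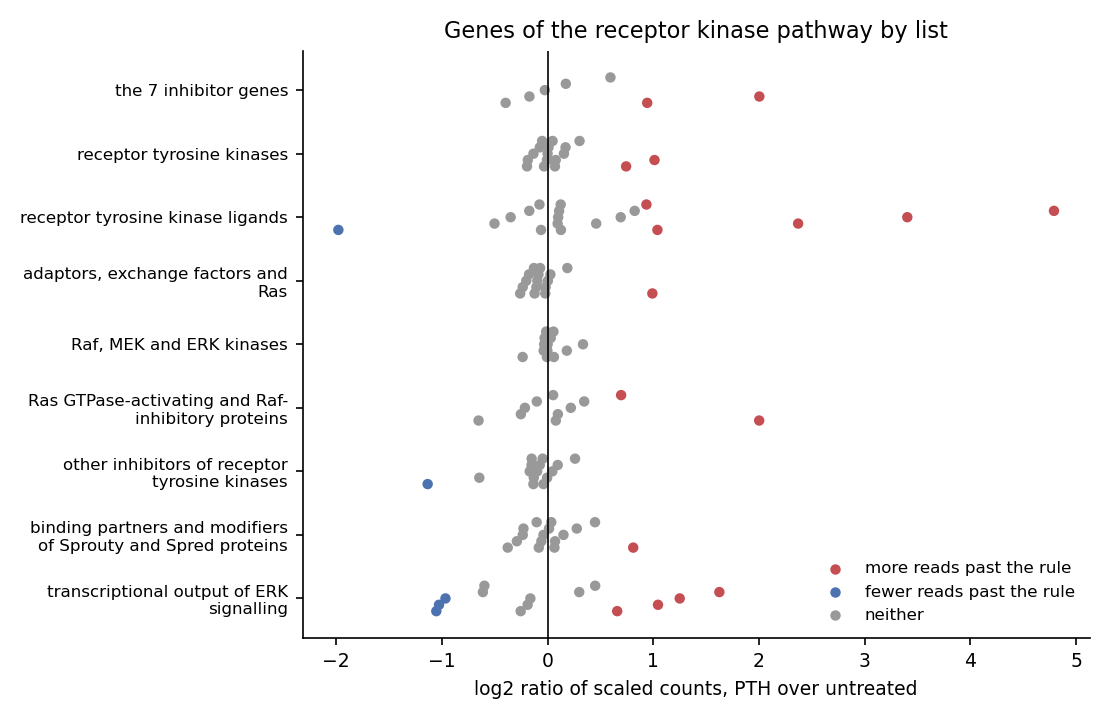
Log2 ratio of scaled counts, PTH over untreated, for the 7 genes and for the compared genes of the 8 pathway lists, 1 point a gene, with points spread vertically for legibility. Red points had more reads by the rule, blue points fewer and grey points neither, and the Raf, MEK and ERK list has grey points only.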

How the data were processed

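The values the authors deposited are raw whole-number counts of reads per gene in 1 column for each library. HISAT2 alignment and the mm10 build come from the submitters' processing notes. No source used here gives the HISAT2 version, counting tool, annotation or use of strand. Coordinates, exons and overlaps came from GENCODE M21 (GRCm38), in which 55141 row identifiers were found, and promoter windows from RefSeq.

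Counts were scaled by edgeR 4.0.16 TMM effective library sizes (R 4.3.3) over rows that reached 20 counts in total. edgeR's quasi-likelihood test leaves 0 residual degrees of freedom here and was not run. Ratios have 95% exact conditional (Clopper-Pearson) intervals, and quotients of 2 ratios exact conditional odds ratio intervals (Python 3.11.15, scipy 1.17.1). The code was tested on counts simulated with counting error alone. That checks the computation and not the spread between cultures. Log2 ratios have 0.5 count added to each library. The sampling limit of a listed 0 was taken as 3 counts, 0.0447 CPM untreated and 0.0434 with PTH.

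The 7 genes and the lists were chosen with earlier results of these data known. The rule for named genes took the 7 genes and Spry3, per list up to 3 genes past the rule of size with the bound farthest from 1, the 2 with most counts where fewer than 2 were past it, and the genes of like pattern. Some genes that the rule names are not reported here. Alternatives were 3 other scalings (DESeq2 1.42.0 size factors among them), 2 other count filters, 2 other fold limits, intervals widened for an assumed coefficient of variation of 0.1 or 0.2 (a normal approximation on the log scale), and 1 count added. Nothing says the libraries came from more than 1 culture each.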

Additional observations from a re-analysis of the deposited data

How the results depend on the processing

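No paired analysis was possible because each group is 1 library. For the same reason no library could be left out and no spread between cultures could be estimated. Depth limits the ratios of genes with few counts, such as Dok2 at 1.81 to 10.0. The 7 ratios kept their direction under the 5 other scalings and filters, and 34 of 35 values stayed inside the interval of the main ratio. The exception was Errfi1, at 1.10 with total-count scaling. Spry2 and Spry4 were past the rule under all 5. The count of genes with more reads was 1, Spry2, with a 2-fold limit, also 1 with an assumed coefficient of variation of 0.1, and 1 with 0.2. With a 1.2-fold limit Spry1 was past the rule as well. No gene of the 7 had fewer reads under any setting run. Over all rows, more and fewer reads were counted for 884 and 581 in the main analysis, 1729 and 1459 with a 1.2-fold limit and 517 and 262 with a 2-fold limit. They were 680 and 404 with an assumed coefficient of variation of 0.1, and 474 and 267 with 0.2. With total-count scaling they were 840 and 643, with DESeq2 size factors 883 and 584, and with upper-quartile scaling 859 and 620. With no filter on low counts they were 1386 and 983. With a total count of 100 or more, where fewer rows entered, they were 543 and 307. For the pathway lists, 20 of 72 counts of genes with more reads and 9 of 72 of those with fewer moved by over 1.5 times, most under other fold limits or widened intervals, and none of 48 medians moved by 0.1 or more on the log2 scale.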

Other observations

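Spry2 and Spry4 are often read together with Dusp4, Dusp6, Etv4 and Etv5 as transcripts of ERK activity, and in these libraries they did not move alongside them. Spry2 was at a ratio of 4.01 and Spry4 at 1.92, while Dusp6 was at 0.512 (0.495 to 0.529), Dusp4 at 0.491 (0.396 to 0.606), Etv4 at 0.661 (0.607 to 0.720) and Etv5 at 0.878 (0.805 to 0.956). The quotient of the ratios, in which library scaling cancels, was 7.83 for Spry2 over Dusp6 (7.31 to 8.39) and 6.06 for Spry2 over Etv4 (5.46 to 6.73). For Spry4 it was 3.75 over Dusp6 (3.06 to 4.62) and 2.91 over Etv4 (2.33 to 3.63). Over Etv5 it was smaller, 4.57 for Spry2 (4.11 to 5.08) and 2.19 for Spry4 (1.76 to 2.74). Etv4 and Etv5 were not past the rule, nor were Spry4, Dusp4 and Dusp6 with an assumed coefficient of variation of 0.1. Of the other listed ERK transcripts, Ier3, Fosl1, Phlda1 and Epha2 had more reads by the rule and Egr1 fewer. Dusp4, Dusp6, Etv4 and Etv5 were picked after their values were seen. The intervals cover counting error only, and no cause of the difference was tested. Il17rd, which encodes Sef, another inhibitor of FGF receptor signalling, had 1675 and 1103 counts and was also picked after its value was seen. Its ratio was 0.639 (0.592 to 0.690), whose interval includes the 1.5-fold limit. Ratios below 1 were common in its list of other inhibitors, at 12 of 15 genes.

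Spry4 and Fgfr1 had ratios that counting error does not separate, with a quotient of 1.15 (0.937 to 1.41), while Spry2 over Fgfr1 was 2.40 (2.25 to 2.55). These pairs were picked after the values were seen. With 147 and 291 counts of Spry4 its interval is wide and does not show equal ratios. Neither Spry4 nor Fgfr1 was past the rule with an assumed coefficient of variation of 0.1.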
